A study of Mus musculus with 6 samples.

Results

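The p53 pathway and its target genes were measured in primary mouse keratinocytes that lack Gpx4, a selenoenzyme that detoxifies peroxidised membrane lipids. The set holds 31 genes, chosen by name: p53 itself, its negative regulators, and target genes for cell cycle arrest, cell death, DNA repair and stress metabolism. A gene was measured by the probe set with the highest mean over the 6 arrays among those annotated with that 1 symbol. This gave values for 29 of the 31 genes, out of 18193 named genes on the array, and Trp53 and Gdf15 were not analysed here. The study compared 3 Gpx4 knockout pools with 3 control pools, 1 of each from litters A, B and C, as biotin-labelled total RNA on 1-colour arrays. The knockout was made with K14-cre, a recombinase driven from the promoter of a basal keratinocyte keratin. The labels do not state the alleles or cre status of the controls, and cells were pooled within a genotype and litter. All 6 pools were of newborn skin, of C57BL6/FVB genetic background, and selenium was supplied to both genotypes as 100 nM sodium selenite.

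p53 is a transcription factor that is stabilised when DNA damage and other stresses free it from the ubiquitin ligase Mdm2. It binds paired copies of a short decamer, the p53 half-site, in or near its target genes, and several targets, Mdm2 among them, feed back to lower p53. Stratified epithelium also depends on the related factor p63, which shares some of these targets, such as the desmosome protein gene Perp.

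Because these genes were grouped as targets of 1 factor, their start sites were searched for the p53 half-site consensus, which reads the same on both strands. RefSeq windows of GRCm38.p6, from 250 bases before to 50 bases after a start, were at hand for 25 of the 31 genes (all but Ddb2, Perp, Xpc, Zmat3, Trp53inp1 and Tnfrsf10b). At least 1 half-site stood in a window of 11 of the 25 genes (44%), against 9.55% of all 27025 genes with a window. A full site, meaning 2 half-sites with at most 13 bases between them, stood in 1 of the 25 genes, Cdkn1a, and in 0.074% of all genes. The 11 genes with a half-site were Cdkn1a, Mdm2, Ccng1, Rps27l, Aen, Trp53, Gadd45a, Polk, Ei24, Ppm1d and Sesn1. Of these, Ei24, Ppm1d and Sesn1 had log2 changes below 0 between knockout and control (-0.01, -0.20 and -0.56). The windows of 5 genes are shown, with half-sites in capitals: Cdkn1a for its full site, Mdm2 as the feedback gene, and Ccng1, Rps27l and Aen as examples with a change above 0. They lie at chr17:29090729-29091028 (plus strand, the upstream start of the gene), chr11:40755237-40755536 (minus strand), chr9:66946163-66946462 (plus strand, the downstream of 2 starts), chr10:117710709-117711008 (minus strand) and chr7:78895677-78895976 (plus strand, the upstream of 2 starts), and each is printed in the direction of transcription.
Cdkn1a: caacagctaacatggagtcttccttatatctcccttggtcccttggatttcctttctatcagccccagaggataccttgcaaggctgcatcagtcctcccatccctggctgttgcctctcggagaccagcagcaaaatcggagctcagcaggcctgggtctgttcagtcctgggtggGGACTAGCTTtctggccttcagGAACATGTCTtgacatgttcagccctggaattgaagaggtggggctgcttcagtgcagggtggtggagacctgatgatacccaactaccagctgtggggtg
Ccng1: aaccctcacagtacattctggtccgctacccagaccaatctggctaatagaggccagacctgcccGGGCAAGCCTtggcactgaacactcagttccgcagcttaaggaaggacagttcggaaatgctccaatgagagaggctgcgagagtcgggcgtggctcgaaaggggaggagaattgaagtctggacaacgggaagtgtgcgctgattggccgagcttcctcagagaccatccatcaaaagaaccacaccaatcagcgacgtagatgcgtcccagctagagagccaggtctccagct
Rps27l: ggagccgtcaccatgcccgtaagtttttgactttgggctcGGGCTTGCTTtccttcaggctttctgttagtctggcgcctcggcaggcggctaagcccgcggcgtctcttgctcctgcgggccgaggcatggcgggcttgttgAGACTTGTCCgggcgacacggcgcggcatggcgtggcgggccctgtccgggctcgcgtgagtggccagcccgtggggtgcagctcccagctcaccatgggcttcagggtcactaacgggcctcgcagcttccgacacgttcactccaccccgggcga
Mdm2: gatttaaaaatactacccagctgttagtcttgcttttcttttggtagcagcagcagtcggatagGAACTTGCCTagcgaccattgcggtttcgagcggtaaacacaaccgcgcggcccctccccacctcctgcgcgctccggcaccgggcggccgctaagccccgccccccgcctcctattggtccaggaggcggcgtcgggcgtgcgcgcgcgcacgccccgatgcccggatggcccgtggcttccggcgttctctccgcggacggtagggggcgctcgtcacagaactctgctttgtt
Aen: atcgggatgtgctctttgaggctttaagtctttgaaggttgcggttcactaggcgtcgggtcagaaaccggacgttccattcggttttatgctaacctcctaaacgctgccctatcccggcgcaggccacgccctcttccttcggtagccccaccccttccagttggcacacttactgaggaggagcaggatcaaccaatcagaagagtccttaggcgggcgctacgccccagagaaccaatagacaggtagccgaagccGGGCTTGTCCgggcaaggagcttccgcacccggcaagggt
The half-sites of Cdkn1a begin 73 and 51 bases before the upstream start and are 12 bases apart. The half-sites of Ccng1 and Mdm2 begin 185 and 186 bases before the start, those of Rps27l 210 and 107 bases before it, and that of Aen lies 10 bases after it. The windows of the downstream Cdkn1a start and the upstream Rps27l start held none. The 10 measured genes with a half-site in a window had a median log2 change of 0.22 between knockout and control, with a range from -0.56 to 0.73, and the 13 measured genes with a window and no half-site had a median of 0.14, with a range from -0.67 to 1.17. The ranges overlap over most of their length. A match is a description of these letters and does not show that p53 binds there.

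None of the 29 genes passed the test. Levels are quantile-normalized intensities, log2 changes are knockout minus control on log2(intensity + 16) with their standard error, and p-values come from limma with litter as a block, adjusted over all 45037 probe sets by the Benjamini-Hochberg method at a threshold of 0.05. Of all probe sets 0.42% passed (189, of which 71, or 0.158% of all, were higher and 118, or 0.262%, lower in the knockout), as did 1.08% of the 10373 named genes that are at least as bright as the dimmest of the 29. On the deposited scale, without quantile normalization, the calls were 3 higher and 32 lower. The smallest adjusted p among the 29 was 0.0695, for Epha2. At an unadjusted p under 0.05, 11 of the 29 genes were higher in the knockout and 4 were lower, 15 in all, against 25.7% of those 10373 named genes (12.1% higher and 13.7% lower) and 14.6% of all probe sets. The median log2 change of the 29 was 0.13, with 19 above 0 and 10 below, beside 0.0018 for all probe sets tested and -0.0085 for those 10373 genes. On the deposited scale the median of the 29 was -0.04, beside -0.07 for all probe sets. Both were lower there, and the 29 moved farther. The median of the upstream regulators read below moved from -0.06 to -0.24. Between 45.4% and 50.1% of probe sets were under 16 in an array as deposited, where the added 16 compresses a difference. The median of all probe sets is therefore a poor reference for brighter genes. With arrays set to equal medians the median of the 29 was 0.02, beside -0.0071 for all probe sets. On the deposited scale many of the 29 log2 changes moved by over 1.5 times: Mdm2 was 0.36, Sesn2 0.29, Apaf1 0.22, Polk 0.16, Ccng1 0.14, Rps27l 0.09 and Zmat3 0.05. These moved toward 0. Changes that were below 0 moved farther from it, among them Ppm1d (-0.40), Sertad1 (-0.34), Perp (-0.31), Xpc (-0.42) and Ddb2 (-0.49).

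**Figure D1:**
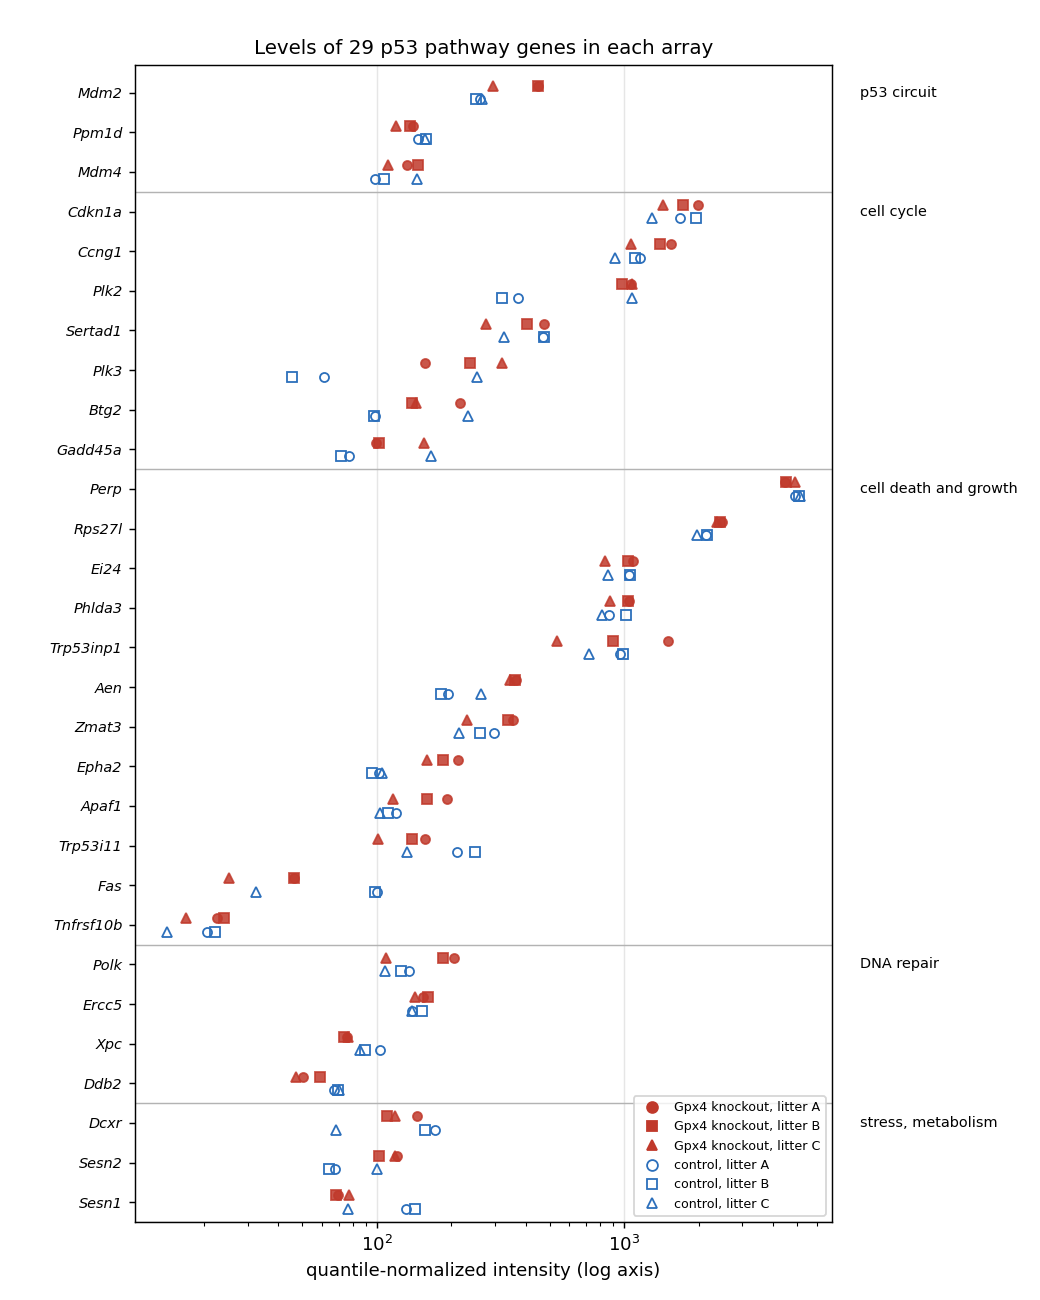
Quantile-normalized intensity (log axis) of each of the 29 genes in each array, with knockout pools as filled red symbols above control pools as open blue symbols, and the litter as the symbol's shape. Levels compare between arrays of 1 gene, not between genes. In Epha2, Aen, Mdm2, Sesn2 and Rps27l the 3 knockout pools lie above the 3 control pools, and in Ppm1d, Xpc and Ddb2 they lie below.

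The targeted gene and the cell types were checked first. Gpx4 was at 212, 259.7 and 216 in the knockout pools of litters A, B and C, against 497, 551 and 536 in the controls, and fell (log2 change -1.15 ± 0.09, adjusted p = 0.0206). The other Gpx4 probe set was also lower in each litter but did not pass (log2 change -1.40 ± 0.21, adjusted p = 0.063, litter A -1.52, B -0.76, C -1.92). Which exons were deleted is not in the labels, so whether these probes lie in them is unknown. The basal keratinocyte gene Krt14 was at 6692, 6607 and 6740.2 in knockout pools and 6808, 6278 and 6478 in controls. The summed level of 9 keratinocyte markers was 22292, 21737 and 21424 in knockout pools and 23921, 23426 and 22066 in controls, and Krt10, a keratin of differentiating cells, fell (log2 change -1.42 ± 0.08, adjusted p = 0.00922). The 6 melanocyte markers summed to 6234, 6836 and 6889.6 in knockout pools and 4565, 4521 and 4674 in controls, and 2 of the 6, Tyrp1 and Mlana, rose. All 3 knockout sums of the melanocyte markers exceeded all 3 control sums. The 8 fibroblast markers summed to 1311, 1282 and 1593 in knockout pools and 395, 368 and 1129.7 in controls, and 0 of the 8 passed. These sums did not overlap either, and the control of litter C lay nearest the knockouts. Most of the fibroblast sum was Vim, which is not specific to fibroblasts (947, 836 and 1038 in knockout pools against 225, 196 and 616 in controls), while Lum stayed under 16 in every array. Col1a1, Col1a2 and Pdgfra, which are more specific to fibroblasts, were higher in the knockout of each litter, with log2 changes of 1.12, 0.83 and 0.71 (adjusted p = 0.0831, 0.157 and 0.229). Col3a1 and Pdgfrb had 0.28 and 0.40, and Dcn and Lum -0.06 and -0.29. Of the endothelial and immune markers, 3 of 4 and 4 of 5 stayed under 16 in every array. In these mixed cultures fewer cells of a type and less RNA per cell cannot be told apart, and the part of these markers in the values below was not tested. The 5 muscle markers summed to 2942, 2804 and 2844 in knockout pools and 4177, 4189 and 2641 in controls, with 1 higher call and 1 lower. Xist was at 1229, 1214 and 1259.8 in knockout and 502, 389 and 536 in control pools, and Eif2s3y of the Y chromosome at 3.18, 0.67 and 4.62 in knockout pools, against 155, 178 and 185 in controls. The sex make-up of the pools and the genotype therefore cannot be told apart for any gene. None of the 29 genes lies on the X or Y chromosome, and a difference by sex in them was not tested.

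Among the regulators that act on p53 itself, Mdm2 had the highest log2 change. Mdm2, which encodes the ubiquitin ligase that degrades p53 and is itself a p53 target, was at 448, 448 and 294 in the knockout pools of litters A, B and C, against 262, 252 and 265 in the control pools. All 3 knockout pools stood above all 3 controls, but the knockout of litter C only by a small margin. The log2 change was 0.56 ± 0.14, adjusted p = 0.163 (litter A 0.74, B 0.79, C 0.14), and its 95% interval was 0.21 to 0.91. Another Mdm2 probe set of nearly equal brightness had a log2 change of 0.59 ± 0.17 (adjusted p = 0.19), and the remaining probe set was under 16 in the mean of both groups. Mdm4, the partner of Mdm2 that holds p53 inactive, was at 132, 147 and 110.5 in knockout pools and 98.6, 107 and 145 in controls. Its groups overlapped, and litter C ran against the other litters (log2 changes litter A 0.37, B 0.40, C -0.35). Ppm1d, the phosphatase Wip1 that removes activating phosphates from p53, was at 139.5, 136 and 119.7 in knockout pools against 147, 157 and 156 in controls. The knockout pools were all below the controls, and the log2 change of -0.20 ± 0.11, adjusted p = 0.474 has a 95% interval that includes 0. A further Ppm1d probe set of similar brightness had overlapping groups, and its litter C ran the other way (log2 change -0.20 ± 0.14, adjusted p = 0.556, litter C 0.09).

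The cell cycle targets did not move together. Cdkn1a, which encodes the cyclin-dependent kinase inhibitor p21 and carries the full p53 site printed above at its upstream start, was at 1975, 1732 and 1429.5 in knockout pools, against 1676, 1944 and 1297 in controls. The groups overlapped and litter B ran the other way (log2 changes litter A 0.23, B -0.17, C 0.14). Its log2 change was 0.07 ± 0.10, adjusted p = 0.802, with a 95% interval of -0.16 to 0.30, so a doubling or a halving of the Cdkn1a signal lies outside the interval. It was -0.09 on the deposited scale and -0.03 with arrays set to equal medians. Ccng1, the cyclin G1 gene, was at 1541, 1396 and 1064 in knockout pools and 1151, 1103 and 916 in controls. Each knockout exceeded the control of its litter, although the groups overlapped (log2 change 0.32 ± 0.08, adjusted p = 0.149). The other 2 probe sets of Ccng1 had log2 changes of 0.54 ± 0.09 and 0.58 ± 0.11 (adjusted p = 0.0724 and 0.0993), larger than on the brightest probe set.

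Plk3 and Plk2, polo-like kinases that respond to stress, topped the 29 genes by log2 change, and both differed widely between litters. Plk3 was at 156, 238 and 320.3 in the knockout pools, against 61.4, 45.6 and 254 in the controls (log2 change 1.17 ± 0.30, adjusted p = 0.155). Plk2 was at 1065, 983 and 1069.6 in knockout pools and 370.2, 321 and 1078 in controls (log2 change 1.01 ± 0.30, adjusted p = 0.2). In both genes the control of litter C stood far above the other controls, and for Plk2 it stood at the level of the knockouts, so that the litter C change was -0.01 against 1.48 in litter A and 1.57 in litter B. Btg2, an antiproliferative immediate-early gene, was at 216, 139 and 144 in knockout pools, against 98.5, 96.9 and 234 in controls. Its control of litter C was the highest of the 6 pools, and the log2 change of 0.28 ± 0.29, adjusted p = 0.721 joins litters of opposite sign (litter A 1.02, B 0.46, C -0.64). Gadd45a, a growth arrest gene induced by DNA damage, was at 98.7, 102 and 154 in knockout pools and 77.5, 71.9 and 166 in controls, both highest in litter C (log2 change 0.21 ± 0.14, adjusted p = 0.556). Sertad1, a coregulator of E2F and cyclin D kinase activity, was at 475, 403 and 275 in knockout pools and 468, 474 and 326 in controls (log2 change -0.15 ± 0.10, adjusted p = 0.544).

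**Figure D2:**
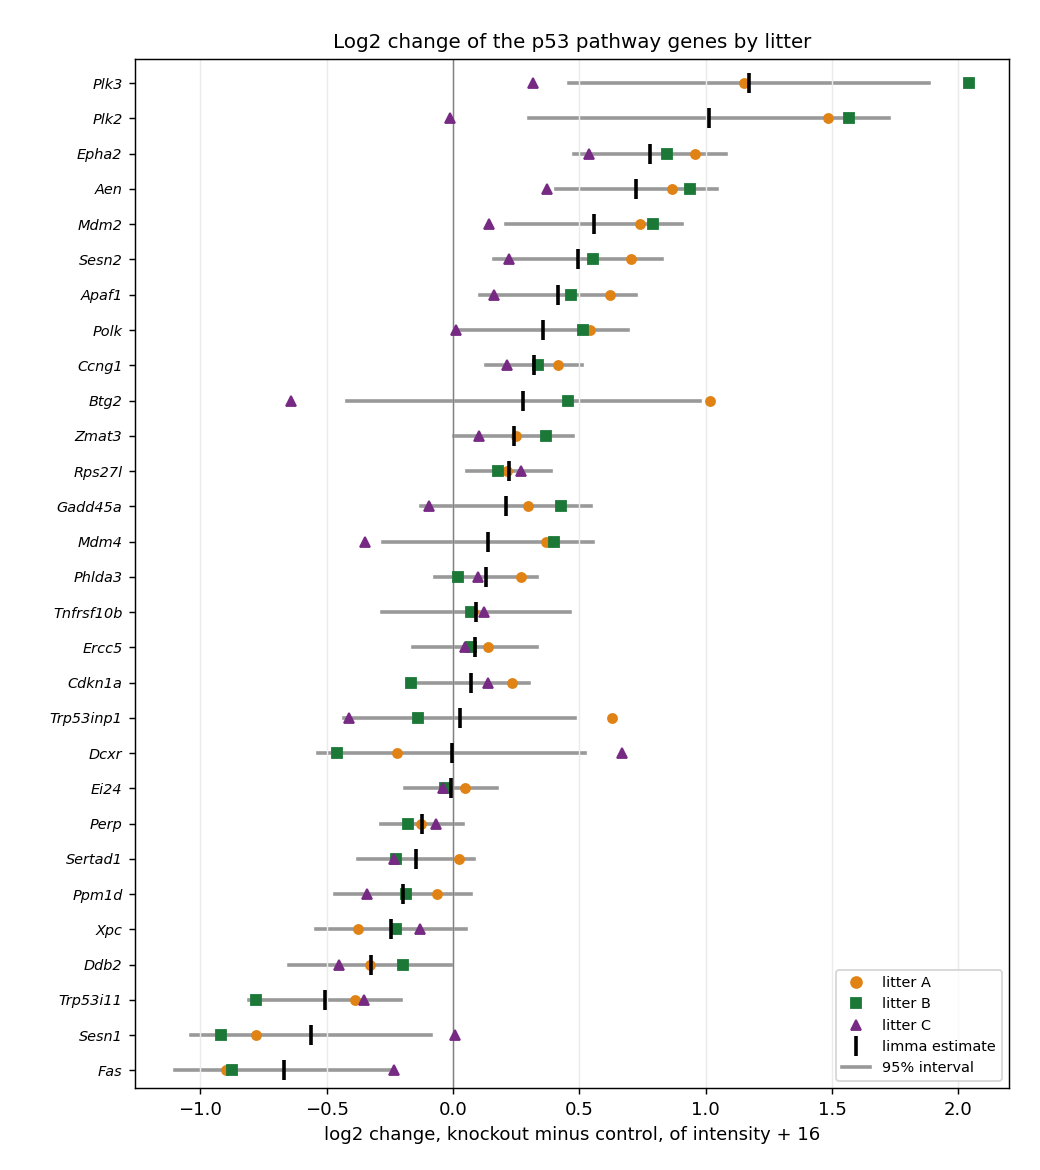
Log2 change, knockout minus control, of each of the 29 genes, with litters A, B and C as symbols, the limma estimate as a black bar and its 95% interval in grey, sorted by the estimate. Litter C lies closer to 0 than litters A and B in Plk2 (litter A 1.48, B 1.57, C -0.01) and Sesn1 (litter A -0.78, B -0.92, C 0.01).

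Of the 12 genes tied to cell death and growth signalling, Epha2 and Aen had the smallest p of the whole set. Epha2, a receptor tyrosine kinase for ephrins, was at 212, 184 and 159.7 in knockout pools, against 102, 95.5 and 105 in controls. Every knockout pool was above every control, and the control pools differed little among themselves. The log2 change was 0.78 ± 0.12, adjusted p = 0.0695 (litter A 0.96, B 0.85, C 0.54). Aen, the apoptosis-enhancing nuclease, was at 365, 362 and 344 in knockout pools and 193, 181 and 262 in controls, again with no overlap (log2 change 0.73 ± 0.13, adjusted p = 0.0865). The next brightest Aen probe set had 0.68 ± 0.13 (adjusted p = 0.0971). Epha2 and Aen passed without the 40% dimmest probe sets (adjusted p = 0.0234 and 0.0319) and with a pseudocount of 1 (0.036 and 0.0499), and no other of the 29 genes passed in either setting. Apaf1, the scaffold of the apoptosome, was at 193, 159 and 116 in knockout pools, against 119.8, 111 and 103 in controls, and Zmat3, an RNA-binding zinc finger gene, was at 356, 339.6 and 232 in knockout pools, against 297, 259.8 and 214 in controls. In both genes each knockout exceeded the control of its own litter while the groups overlapped (log2 changes 0.42 ± 0.13, adjusted p = 0.221 and 0.24 ± 0.10, adjusted p = 0.334). On a dimmer Apaf1 probe set litter C ran the other way (log2 change 0.18 ± 0.15, adjusted p = 0.645, litter C -0.05). Rps27l, a paralog of the ribosomal protein gene Rps27, was at 2492, 2434 and 2370.5 in knockout pools and 2144, 2149 and 1963 in controls. Its difference was small but alike in the 3 litters (log2 change 0.22 ± 0.07, adjusted p = 0.226), and its probe set is of a type (suffix x_at) whose probes may match related transcripts. A further Rps27l probe set without that suffix had 0.31 ± 0.07 (adjusted p = 0.13), again with all knockouts above all controls.

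The death receptor Fas had the lowest log2 change of the 29 genes. Fas was at 46.5, 46.2 and 25.3 in knockout pools, against 100.3, 98.0 and 32.5 in control pools (log2 change -0.67 ± 0.18, adjusted p = 0.173). In litters A and B the knockouts were far below their controls, whereas in litter C both pools were dim. The other death receptor, Tnfrsf10b, was at 22.7, 24.2 and 16.9 in knockout pools and 20.7, 22.2 and 14.2 in controls, close to the dim end of the array, where the added 16 compresses a difference (log2 change 0.09 ± 0.15, adjusted p = 0.844). Trp53i11, a p53-induced gene, was at 156, 138 and 101 in knockout pools, against 210.1, 249 and 133 in controls, lower in each litter but with overlapping groups (log2 change -0.51 ± 0.13, adjusted p = 0.151). Trp53inp1, a stress-induced nuclear protein gene, was at 1499, 897 and 536 in knockout pools and 963, 989 and 719 in controls. The knockouts of this gene spanned more than the controls, and its litters differed in sign (litter A 0.63, B -0.14, C -0.41, estimate 0.03 ± 0.19, adjusted p = 0.97). Perp, needed for desmosomes in the epidermis, was at 4459, 4487 and 4907 in knockout pools against 4872, 5074 and 5141 in controls (log2 change -0.12 ± 0.07, adjusted p = 0.457). Phlda3, an inhibitor of Akt signalling, and Ei24, an endoplasmic reticulum protein gene, had log2 changes of 0.13 and -0.01, with 95% intervals of -0.07 to 0.33 and -0.19 to 0.17.

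The 4 DNA repair genes split evenly. Ddb2 and Xpc, which recognise damage for nucleotide excision repair, were lower in all 3 knockout pools than in any control on the probe sets used. Ddb2 was at 50.4, 58.9 and 47.3 in knockout pools, against 67.3, 69.8 and 70.5 in controls (log2 change -0.33 ± 0.13, adjusted p = 0.337). Another Ddb2 probe set of similar brightness was lower in the knockout of each litter, but its groups overlapped (log2 change -0.18 ± 0.14, adjusted p = 0.594). Xpc was at 75.8, 74.0 and 76.4 in knockout pools and 103, 89.3 and 85.2 in controls (log2 change -0.25 ± 0.12, adjusted p = 0.423). Neither passed, and in both genes the control of litter C stood near the other controls. Polk, a translesion DNA polymerase, was at 204, 186 and 109 in knockout pools, against 135, 125 and 108 in controls. Litters A and B were higher in the knockout and litter C was level (log2 changes litter A 0.54, B 0.51, C 0.01, estimate 0.36 ± 0.14, adjusted p = 0.319). On a dimmer Polk probe set litter C ran the other way (log2 change 0.22 ± 0.20, adjusted p = 0.678, litter C -0.26). Ercc5, an endonuclease of nucleotide excision repair, was at 154, 161 and 143 in knockout pools and 138, 153 and 138 in controls (log2 change 0.09 ± 0.10, adjusted p = 0.762).

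The sestrins, stress-induced regulators that restrain mTORC1, pointed opposite ways. Sesn2 was at 121, 102 and 119 in knockout pools, against 68.0, 63.97 and 99.7 in controls, with no overlap (log2 change 0.49 ± 0.14, adjusted p = 0.186). On the other Sesn2 probe set, of similar brightness, the groups overlapped and litter C ran the other way (log2 change 0.37 ± 0.22, adjusted p = 0.507, litter C -0.27). Sesn1 was at 69.8, 68.1 and 76.8 in knockout pools and 131, 143 and 76.4 in controls (log2 change -0.56 ± 0.20, adjusted p = 0.269). On this Sesn1 probe set the 3 knockouts lay close together and the control of litter C lay with them, so the change was -0.78 and -0.92 in litters A and B and 0.01 in litter C. Another 3 probe sets of Sesn1 had log2 changes of -0.56, -0.75 and -0.16, the last at under 16 in the mean of both groups. On the probe set with -0.75 the account of litter C differed: all knockouts (37.2, 35.1 and 31.03) lay below all controls (68.2, 91.6 and 51.2), and the litter C change was -0.51. Dcxr, a carbonyl and sugar reductase gene, was at 145, 109.7 and 118 in knockout pools against 172, 157 and 68.4 in controls, and its near-zero log2 change of -0.01 ± 0.22, adjusted p = 0.996 joins litters of opposite sign (litter A -0.22, B -0.46, C 0.67).

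Over the 29 genes, on the brightest probe set of each, the 3 knockout pools lay above the 3 controls in 5 genes and below them in 3. Of the 10373 named genes of at least that brightness, 12.5% had the knockouts all above and 14.5% all below (8.79% and 9.43% of all probe sets), so these 8 genes are a share close to that of named genes at large. Of the 17 genes with more than 1 probe set, 26 further probe sets were measured, of which 21 had the sign of the brightest, and 0 of all probe sets of the 29 genes passed.

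Litter C differed from litters A and B in this gene set. On the log2(intensity + 16) scale the control of litter C was at least 2-fold from both other controls in 5 of the 29 genes, higher in Btg2, Plk2 and Plk3 and lower in Fas and Dcxr, against 2.97% of the 10373 named genes, whereas 0 of the 29 genes differed that much between the controls of litters A and B. Among knockouts, 1 gene of the 29 (Trp53inp1) differed that much between litters A and C and 0 between litters B and C. In other genes the knockout of litter C was the pool that differed: Mdm2 was at 294 in that pool, against 448 and 448 in the other knockouts, while its controls were level. The control of litter C was also the array with the highest trimmed mean intensity as deposited (114.3) and, among the controls, with the highest fibroblast marker sum, and the part of either in these values was not tested. The median log2 change of the 29 genes was 0.25 for litter A, 0.07 for B and 0.01 for C.

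Without litter C, 13 of the 29 genes passed, 10 higher and 3 lower in the knockout, where 6.16% of all probe sets passed. Among named genes at least as bright as the dimmest of the 29, 14.8% passed, 7.16% as higher and 7.68% as lower. That fit rests on 2 litters. Litter C was seen above to differ in these same genes, so the calls without it are a description only. The genes that passed as higher were Plk2 (1.53, adjusted p = 0.000374), Aen (0.90, adjusted p = 0.00371), Mdm2 (0.77, adjusted p = 0.0053), Epha2 (0.90, adjusted p = 0.00671), Plk3 (1.60, adjusted p = 0.00877), Ccng1, Polk, Apaf1, Sesn2 and Btg2. Those that passed as lower were Sesn1 (-0.85, adjusted p = 0.0125), Fas (-0.89, adjusted p = 0.0156) and Trp53i11 (-0.58, adjusted p = 0.043). Cdkn1a stayed near 0 (0.03, adjusted p = 0.912). Without litter A or without litter B, 0 of the 29 genes passed, and 3 and 0 of all probe sets did.

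**Figure D3:**
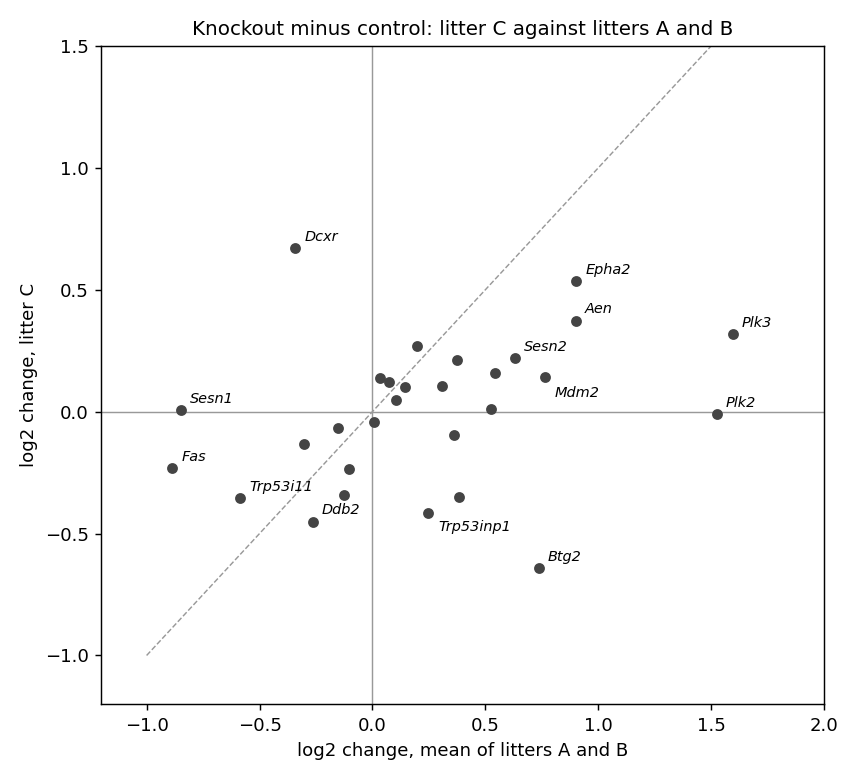
Log2 change, knockout minus control, of the 29 genes in litter C (vertical axis) against the mean of litters A and B (horizontal axis), with the line of equality dashed. Plk2, Plk3, Mdm2, Fas and Sesn1 lie far from 0 on the horizontal axis and closer to 0 on the vertical axis, and Btg2 and Dcxr have opposite signs on the axes.

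Other genes of the pathway were read from 5 further lists. Their counts without litter C stand beside the 14.8% of named genes that passed in that fit, 7.16% as higher and 7.68% as lower. Without litter A or without litter B, 0 genes of these lists passed. None of the 20 measured upstream regulators and partners of p53 passed, with a median log2 change of -0.06 (-0.24 on the deposited scale). Trp63, the p63 transcription factor of stratified epithelia, was at 914, 785 and 766 in knockout pools, against 1256, 1104 and 991 in controls (log2 change -0.43 ± 0.08, adjusted p = 0.0817). Its relative Trp73 was at 21.9, 20.1 and 31.2 in knockout pools and 66.0, 73.3 and 43.9 in controls (log2 change -0.92 ± 0.22, adjusted p = 0.141), lower in each litter and least in litter C. The acetyltransferase gene Kat5 and the nuclear body gene Pml had log2 changes of -0.36 and 0.45 (adjusted p = 0.17 and 0.199). Without litter C 3 of the 20 passed, a share close to that of named genes in either direction. All 3 were lower, where 7.68% of named genes passed as lower, and they included Trp63 (-0.47, adjusted p = 0.0158) and Trp73 (-1.21, adjusted p = 0.0121).

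Of 10 measured further p53 targets in cell death, 0 passed (median 0.16). Bid, a BH3-only activator of Bax and Bak, was at 187, 211 and 243 in knockout pools, against 129, 126 and 187 in controls (log2 change 0.51 ± 0.11, adjusted p = 0.12), and the antiapoptotic Bcl2l1 at 263, 223 and 213 in knockout pools, against 172, 188 and 140.5 in controls (0.45 ± 0.11, adjusted p = 0.154). Siva1 and Casp6, both linked to apoptosis, were lower, at -0.36 and -0.48 (adjusted p = 0.178 and 0.179). Without litter C 2 of the 10 passed as higher, Bid (0.59, adjusted p = 0.0283) among them. Of 10 measured targets in metabolism and redox balance, 0 passed (median 0.14, but -0.06 on the deposited scale and -0.0024 with arrays set to equal medians, and mean -0.07). Ak1, an adenylate kinase, had the log2 change farthest from 0 among them: it was at 30.8, 33.9 and 44.1 in knockout pools, against 188, 196 and 37.5 in controls (log2 change -1.35 ± 0.44, adjusted p = 0.241; without litter C -2.11, adjusted p = 0.000521). Its control of litter C stood with the knockouts. Without litter C 3 others of the 10 passed as higher, Sco2 (0.58, adjusted p = 0.0365), Sat1 (0.64, adjusted p = 0.00612) and Slc19a2 (0.53, adjusted p = 0.025), of which Sat1 and Slc19a2 are named here after their values were seen. With all litters Sat1 and Slc19a2 had log2 changes of 0.22 and 0.18 (both adjusted p = 0.75). Litter C ran the other way in both (-0.62 and -0.50). Sat1 lies on the X chromosome, and for it the sex make-up of the pools and the genotype cannot be told apart. Sco2, Slc7a11 (the cystine transporter subunit that p53 can repress) and Tigar had log2 changes of 0.39, 0.40 and 0.32 (adjusted p between 0.312 and 0.375).

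Of 19 measured targets in DNA repair, cell cycle and signalling, 0 passed (median -0.03, and -0.18 on the deposited scale). Rev3l, the catalytic subunit of a translesion polymerase, was at 104, 135 and 144 in knockout pools and 194, 189.9 and 189 in controls, all knockouts below all controls (log2 change -0.54 ± 0.13, adjusted p = 0.136). Eda2r, a receptor of the tumour necrosis factor family on the X chromosome, was at 74.1, 81.5 and 49.6 in knockout pools, against 35.5, 25.8 and 40.9 in controls (0.75 ± 0.21, adjusted p = 0.194), and for this gene the sex make-up of the pools and the genotype cannot be told apart. Bhlhe40 and Ckap2 had log2 changes of -0.36 and -0.51 (both adjusted p = 0.216). Without litter C Rev3l and Ckap2 passed as lower and Eda2r as higher (-0.63, adjusted p = 0.0349, -0.72, adjusted p = 0.0144 and 1.02, adjusted p = 0.0223).

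The genes that p21 lowers through the DREAM repressor complex, mostly genes of mitosis, had the lowest median of the 5 lists. None of the 14 measured passed, 11 were below 0 and 3 above, and the median was -0.24 (-0.42 on the deposited scale and -0.37 with arrays set to equal medians). Ccnb2, a mitotic cyclin, was at 266, 273 and 252 in knockout pools, against 412, 451 and 377 in controls (log2 change -0.62 ± 0.09, adjusted p = 0.0572). Cdc20, an activator of the anaphase-promoting complex, was at 869, 1042 and 1011 in knockout pools and 1300.4, 1387 and 1278 in controls (-0.44 ± 0.08, adjusted p = 0.0898). In both genes all knockouts lay below all controls. Birc5 and Ccna2 had log2 changes of -0.33 and -0.30 (adjusted p = 0.178 and 0.197). Without litter C 3 of the 14 passed, all lower, among them Ccnb2 (-0.65, adjusted p = 0.00953) and Cdc20 (-0.49, adjusted p = 0.0174). The cell cycle homology motif (TTTGAA or TTCAAA on either strand) stood in the start-site window of 6 of 11 of these genes with a window, against 20.2% of all genes, and it overlapped a p53 half-site in 53 of all 32851 windows.

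**Figure D4:**
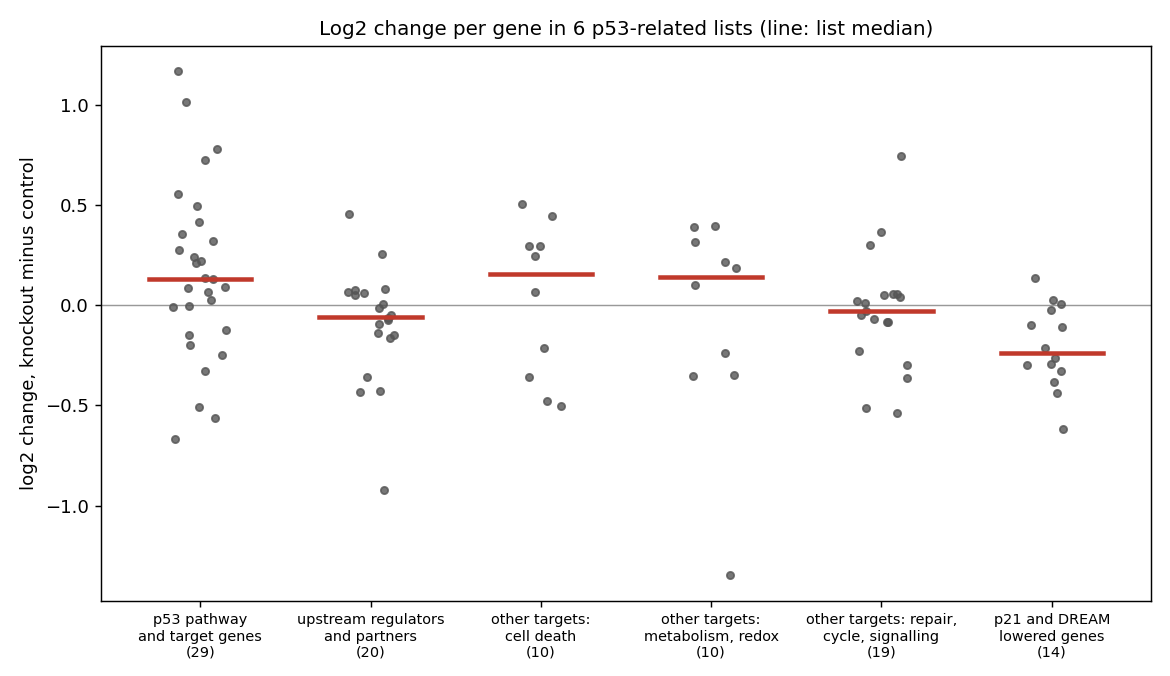
Log2 change, knockout minus control, of each gene (points) in the p53 pathway and target genes and in 5 further lists, with the list median as a red line and the number of genes in brackets. The medians run between -0.24 for the genes lowered through p21 and DREAM and 0.16 for the further cell death targets.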

How the data were processed

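Arrays measured 45101 probe sets in 6 pools of primary keratinocytes. The deposited intensity of each probe set is linear and runs from 0 to 9550.8, and how the authors summarised and scaled it was not given in the sources used here. Mean intensities trimmed at both ends differed by up to 1.57-fold between arrays, so they were quantile-normalized. The 64 control probe sets were left out. limma 3.58.1 in R 4.3.3 (lmFit, and eBayes with an intensity trend) tested log2(intensity + 16) with litter as a block, because the design text says that knockout and control pools shared a litter. Residuals of same-litter arrays had r = 0.17 for litter A, 0.05 for litter B and 0.21 for litter C.

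Symbols came from the platform annotation of the probe sets: it gave 1 gene for 34945, several for 932 and no entry for 9160. The genes, the further lists and the tests were chosen with earlier results of these data known. All 29 measured genes are named, and from the other lists up to 4 genes with the smallest p. The number of arrays limits precision. Alternatives were scaling, pseudocount, a filter on dim probe sets, no block, no trend, each litter left out and the mean of a gene's probe sets. The labels call the pools biological replicates.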

Additional observations from a re-analysis of the deposited data

How the results depend on the processing

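Over all probe sets, 189 passed. The count was 35 with the intensities scaled as deposited, 710 with arrays set to equal medians, 601 and 59 with pseudocounts of 1 and 64, 1136 without the 40% dimmest probe sets (27022 tested), 6 without an intensity trend and 135 without the replicate block by litter. With 1 litter left out it lay between 0 (without litter B) and 2773 (without litter C). Of the 29 genes, 0 passed in the reported setting, as deposited, with arrays set to equal medians, with a pseudocount of 64, without a trend, without the replicate block, or with the mean of a gene's probe sets. With a pseudocount of 1 or without the dimmest probe sets 2 passed, and with 1 litter left out between 0 and 13. Dropping the replicate block leaves every estimate as it was, since the litters are balanced, and changed no call among the 29 genes, but adjusted p moved, to 0.406 for Ccng1, 0.388 for Plk3, 0.462 for Fas and 0.0575 for Epha2. The median of the 29 genes, 0.13, was -0.041 as deposited, where that of all probe sets was -0.066. With 1 litter left out it lay between 0.06 and 0.20. In the 5 further lists 0 genes passed in the reported setting, against up to 2 in a list without the dimmest probe sets and up to 4 without litter C. The causes were not tested.

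Some genes turned sign, and not only those near 0: Gadd45a and Btg2 had log2 changes of 0.21 and 0.28 in the reported setting. As deposited, where the median of all probe sets was -0.066, the sign turned for Mdm4 (-0.071), Cdkn1a (-0.091), Gadd45a (-0.0026), Phlda3 (-0.041), Trp53inp1 (-0.15) and Ercc5 (-0.11). With arrays set to equal medians it turned for Mdm4 (-0.011), Cdkn1a (-0.031), Trp53inp1 (-0.088) and Ercc5 (-0.055). With the mean of a gene's probe sets it turned for Trp53inp1 (-0.028) and Ercc5 (-0.10), and with a pseudocount of 1 for Dcxr (0.0074). With a litter left out Cdkn1a lay between -0.013 and 0.19, Btg2 between -0.093 and 0.74, Trp53inp1 between -0.28 and 0.25, Dcxr between -0.34 and 0.22 and Ei24 between -0.037 and 0.0085. None of these genes passed where it turned sign.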
